A study of Arabidopsis thaliana with 12 samples.

Results

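Heat shock transcription factors (HSFs) are the proteins that switch on heat-protective genes in plants, and 10 genes of the family are described here: HSFA1A, HSFA1B, HSFA1D, HSFA2, HSFA4A, HSFA8, HSFB1, HSFB2A, HSFB2B and HSFC1. They were chosen by name and make up 10 of the 27655 genes measured and 10 of the 21 HSF genes of Arabidopsis thaliana that have a row in the data. All samples were wild-type Col-0 seedlings, 7 days old, grown in shaken liquid medium with no heat treatment. They received only the solvent DMSO at 0.1% of the medium, added 3 h after lights-on, and were frozen 20 and 60 min later. Ribo-seq reads the short pieces of mRNA that sit inside ribosomes, called footprints, while RNA-seq reads total RNA after removal of rRNA, and each was made with 6 libraries. Since the libraries of an assay were pooled into a single value per gene, neither a spread between replicates nor a test can be given, and every interval below covers counting error only.

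HSFs bind DNA as trimers, each subunit through a winged helix-turn-helix domain that reads inverted repeats of the bases GAA, the heat shock elements, in front of genes for chaperones. Plants have 3 classes. Class A factors carry an activation motif and drive transcription, class B factors lack it and mostly repress, and class C is small and less studied. In unstressed cells the class A1 proteins are held inactive by the chaperones HSP70 and HSP90, and heat frees them. HSFB1, also called TBF1, is known besides for switching growth to defence, and its mRNA carries upstream open reading frames (uORFs), short reading frames ahead of the main one that keep ribosomes from reaching it.

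The family is held together by its DNA-binding domain, whose recognition helix enters the major groove. The coding stretch of that helix shown here was picked as the best match over these 10 genes. Its likeness therefore cannot stand for that of the whole domain. The stretch is shown because reads can be credited to the wrong gene where paralogs share identical runs. Bases are given in the sense of the coding strand, from the RefSeq genome TAIR10.1, and capitals mark the 19 of 36 positions that are identical in all 10 genes.
HSFA1A, chr4:9871271-9871306, minus strand: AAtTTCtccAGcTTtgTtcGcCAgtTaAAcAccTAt
HSFA1B, chr5:5530668-5530703, plus strand: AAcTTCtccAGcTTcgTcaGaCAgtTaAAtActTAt
HSFA1D, chr1:11659947-11659982, minus strand: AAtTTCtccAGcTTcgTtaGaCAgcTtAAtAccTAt
HSFA2, chr2:11136129-11136164, plus strand: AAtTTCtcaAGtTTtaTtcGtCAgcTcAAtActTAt
HSFA4A, chr4:10348830-10348865, minus strand: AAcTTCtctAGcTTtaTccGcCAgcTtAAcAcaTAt
HSFA8, chr1:25486077-25486112, minus strand: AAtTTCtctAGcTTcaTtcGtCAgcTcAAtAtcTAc
HSFB1, chr4:17440843-17440878, plus strand: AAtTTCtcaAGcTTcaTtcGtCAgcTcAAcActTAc
HSFB2A, chr5:24916422-24916457, plus strand: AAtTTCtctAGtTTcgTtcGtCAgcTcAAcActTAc
HSFB2B, chr4:7043324-7043359, plus strand: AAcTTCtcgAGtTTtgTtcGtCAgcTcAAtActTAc
HSFC1, chr3:8941647-8941682, plus strand: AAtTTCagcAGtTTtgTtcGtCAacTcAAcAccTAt
Of the 12 codons, 10 encode the same residue in all 10 genes. The search took the 15 codons of HSFA1A whose residues were best matched over these 10 genes. These were cut to the 12 codons before an intron that all 10 genes share, so the end at an exon was set by the choice. That intron, of 77 bases in HSFA4A up to 1420 bases in HSFA1D, interrupts the domain at the same codon. On the transcript with the longest coding sequence it is the only coding intron of 9 of them, and HSFA1D has a further one there, while HSFA2 has a further one on its longest transcript.

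The longest run of bases shared by the coding sequences of any pair of these 10 genes was 25 bases, between HSFB1 and HSFB2A, and the median over the 45 pairs was 14 bases. No word of 28 bases is therefore common to any pair of them, and 9 of the 10 genes shared no 28-base word with the coding sequence of any other gene. HSFA1A was the exception, with 2.53% of its 28-base words found in 21 other genes. All of these words lie in one run of AAC triplets near the end of its coding sequence, codons 453 to 474. It is shown here with the 20 AAC codons in capitals, as the place where such words also occur elsewhere. Footprints of 25 bases or less may be shared at further places.
HSFA1A, chr4:9870035-9870100, minus strand: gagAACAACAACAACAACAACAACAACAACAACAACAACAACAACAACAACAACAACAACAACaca

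Expected counts, the reads that the RSEM program credits to a gene, summed to 299584069 footprints in Ribo-seq and 51390094 in RNA-seq. The 10 genes held 128 to 4297 footprints and 37 to 776 RNA-seq counts, so RNA-seq sets most of the width of their intervals. Levels are given in TPM, reads divided by the effective coding length, which differs between the assays, and scaled to the same total in both. Footprints per RNA are given as a log2 ratio, Ribo-seq TPM divided by that of RNA-seq, after 0.1 was added to each. Over the 21422 nuclear genes with more than 0.1 TPM in RNA-seq its median was 0.12 and its middle range from the 25th to the 75th percentile ran from -0.42 to 0.57. Scaling TPM over nuclear genes alone shifts that median by -0.43, so each gene is placed against the nuclear median. The 4 green tissue markers stood at 1945 to 9676 TPM in Ribo-seq and at 1645 to 7470 TPM in RNA-seq, so green tissue was present in both, although the Ribo-seq descriptions name root. The 3 root hair markers were present as well, at 8.80 to 168.3 TPM in Ribo-seq and 6.14 to 27.52 TPM in RNA-seq. The actin gene ACT4, a pollen marker that shares 8.49% of its 28-base words with other genes, had 7.46 TPM in Ribo-seq and 0.06 TPM in RNA-seq, and what part this plays in other ratios was not tested. Seedlings mix many cell types, so fewer cells that express a gene and less RNA per cell cannot be told apart.

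All 10 genes were at low to middling levels in these unheated seedlings, and the footprints of 9 of them lay within 2-fold of their RNA level. Levels spanned 22.8-fold in Ribo-seq, from 0.39 TPM (HSFA2) to 8.88 TPM (HSFA1D), and 16.1-fold in RNA-seq, from 0.74 TPM (HSFA2) to 11.93 TPM (HSFB1). HSFB1 was the most abundant of the 10 in RNA, while 4 of the others had more footprints per length. The median ratio of the 10 genes was -0.20, against 0.12 for all nuclear genes, and 7 of them lay below the nuclear median. Of the 10, 1 had a ratio under -1, a 2-fold deficit of footprints, and 0 had a ratio over 1, where 10.1% and 8.44% of the nuclear genes did. A share of 1 in 10 is close to that background, so the count says nothing particular about HSFs.

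**Figure D1:**
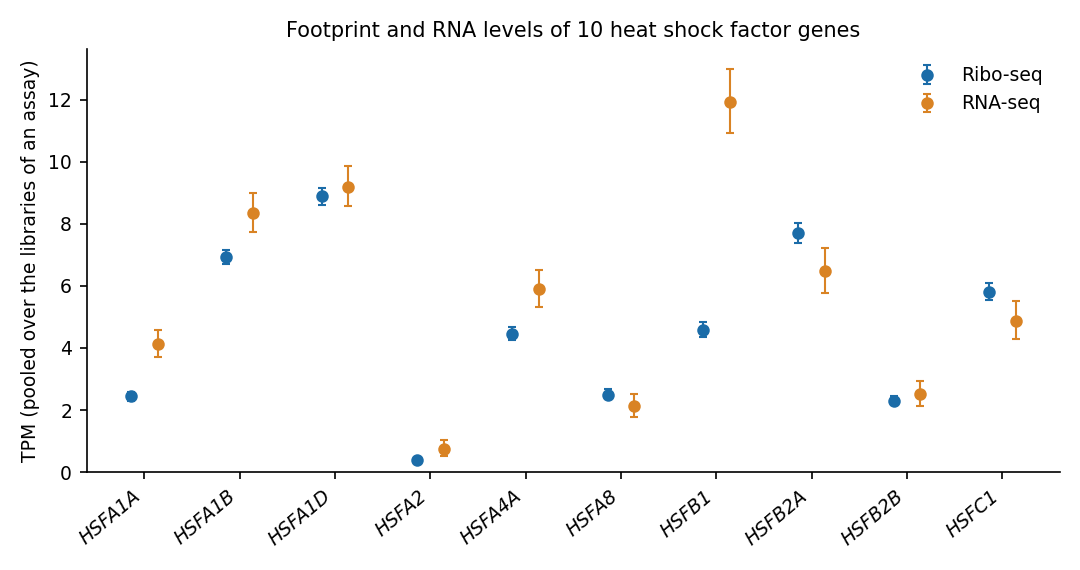
TPM of each of the 10 HSF genes in Ribo-seq (blue, left) and RNA-seq (orange, right), 1 pooled value per assay, with bars for the exact 95% Poisson interval of the count. HSFB1 is the gene whose points lie farthest apart, at 4.59 TPM in Ribo-seq and 11.93 TPM in RNA-seq.

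The class A1 genes encode the master activators of the heat response, which are present before heat and act redundantly. HSFA1D (AT1G32330, chr1:11656964-11660471) had 4297 footprints and 776 RNA-seq counts, or 8.88 TPM in Ribo-seq against 9.20 TPM in RNA-seq. Its ratio was -0.05 (95% interval -0.16 to 0.06). HSFA1B (AT5G16820, chr5:5530195-5532889) had 3329 footprints and 699 RNA-seq counts, or 6.93 TPM in Ribo-seq against 8.35 TPM in RNA-seq, and a ratio of -0.27 (-0.38 to -0.15). These were the A1 genes with the higher levels in both assays. HSFA1A (AT4G17750, chr4:9869818-9871646) had 1208 footprints and 357 RNA-seq counts, or 2.44 TPM in Ribo-seq against 4.13 TPM in RNA-seq. With a ratio of -0.74 (-0.91 to -0.56) it lay at percentile 15.5 of nuclear genes, and its interval did not reach those of HSFA1B or HSFA1D. Of these 3 redundant activators HSFA1A was thus lowest in level and ratio, while the intervals of HSFA1B and HSFA1D overlap.

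HSFA2 (AT2G26150, chr2:11135624-11137792), the factor that heat induces most strongly and that prolongs the response, was the least abundant of the 10 in both assays. It had 128 footprints and 37 RNA-seq counts, or 0.39 TPM in Ribo-seq against 0.74 TPM in RNA-seq. The ratio of -0.78 has the widest interval of the 10 genes, -1.32 to -0.21, and at this depth it cannot be placed above or below -1. HSFA2 has annotated coding forms of 1038 and 873 bases that differ by splicing. The mean length that RSEM gave was 1008.83 bases in Ribo-seq and 936.08 bases in RNA-seq, which places 82.3% of the level on the longer form in Ribo-seq and 38.2% in RNA-seq. These shares are model estimates from few reads, without an interval.

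The remaining class A genes lay on both sides of the nuclear median. HSFA4A (AT4G18880, chr4:10347479-10349902), which acts in responses to salt and oxidative stress, had 1778 footprints and 400 RNA-seq counts, or 4.45 TPM in Ribo-seq against 5.90 TPM in RNA-seq. Its ratio of -0.40 (-0.56 to -0.24) stood at percentile 25.9. HSFA8 (AT1G67970, chr1:25484449-25486512), described as a redox-sensitive factor, had 930 footprints and 132 RNA-seq counts, or 2.50 TPM in Ribo-seq against 2.12 TPM in RNA-seq. The ratio of HSFA8, 0.23 (-0.04 to 0.50), holds the nuclear median within its interval.

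HSFB1 (AT4G36990, chr4:17440177-17442151), a repressor of heat genes that also drives the defence switch, stood lowest in the set. It had 1287 footprints and 530 RNA-seq counts, or 4.59 TPM in Ribo-seq against 11.93 TPM in RNA-seq. Its ratio was -1.36 (-1.51 to -1.21), 2.57-fold fewer footprints than its RNA level on this scale, and only 5.49% of the nuclear genes lay lower. The intervals of 8 of the other 9 genes lay wholly above it, and the exception was HSFA2. By RNA, HSFB1 stood at percentile 59.8 of nuclear genes, and by footprints at percentile 37.2.

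The other class B genes did not share this deficit. HSFB2A (AT5G62020, chr5:24915807-24917643), a repressor with a role in gametophyte development, had 2272 footprints and 307 RNA-seq counts, or 7.69 TPM in Ribo-seq against 6.47 TPM in RNA-seq, and a ratio of 0.25 (0.07 to 0.42). HSFB2B (AT4G11660, chr4:7042354-7044708), which acts with HSFB1 as a repressor, had 862 footprints and 159 RNA-seq counts, or 2.3 TPM in Ribo-seq against 2.52 TPM in RNA-seq. Its ratio was -0.13 (-0.37 to 0.13). Among these 3 class B genes HSFB1 had the highest TPM in RNA-seq and HSFB2A the highest in Ribo-seq.

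HSFC1 (AT3G24520, chr3:8941066-8942874), the only class C gene of Arabidopsis, had 1900 footprints and 261 RNA-seq counts, or 5.81 TPM in Ribo-seq against 4.87 TPM in RNA-seq. Its ratio, 0.25 (0.06 to 0.44), stood with that of HSFB2A at the top of the 10, inside the middle range of nuclear genes, and HSFB2A was the higher with a pseudocount of 1, with CPM (counts scaled to the assay total, no length term) and with whole coding lengths. An antisense noncoding gene covers 100.0% of the coding bases of HSFC1, and another covers 31.0% of those of HSFB2B. No source used here says whether RNA-seq reads were counted by strand, so for this pair of genes sense and antisense RNA cannot be told apart.

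In the order of ratios from HSFB1 up to HSFC1, 8 of 9 neighbouring pairs had overlapping intervals, and the pair that did not was HSFA1A and HSFA4A. In the order of Ribo-seq levels 6 of 9 neighbouring pairs were apart, and in that of RNA-seq levels 4 of 9 were. Against the nuclear median, the intervals of 6 genes lay wholly below it (HSFB1, HSFA2, HSFA1A, HSFA4A, HSFA1B and HSFA1D), 4 held it, and 0 lay wholly above.

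**Figure D2:**
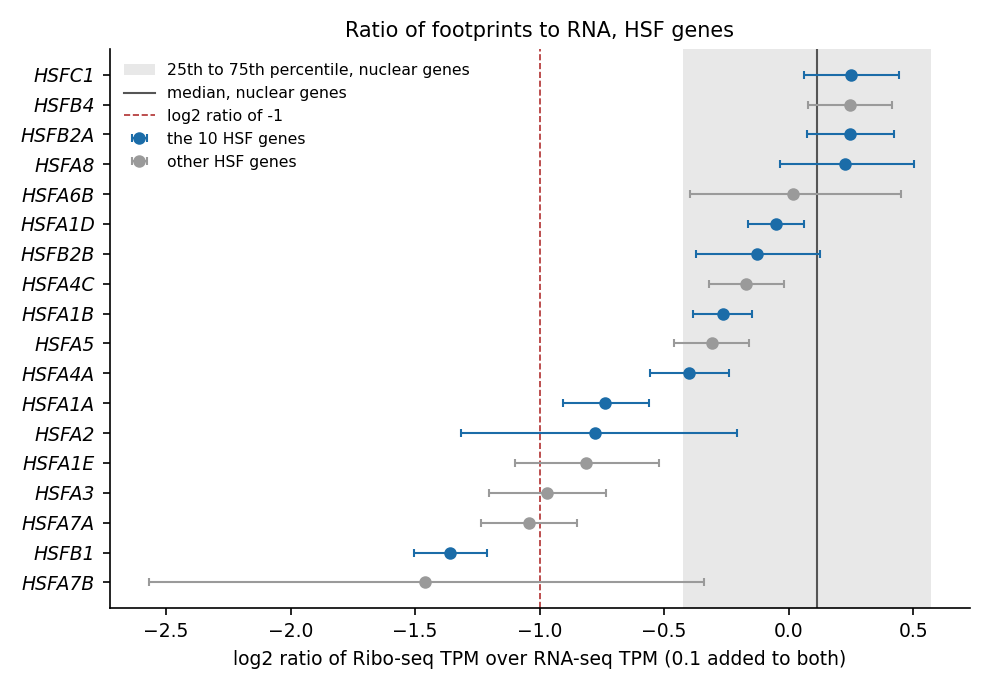
log2 ratio (Ribo-seq over RNA-seq, horizontal axis) for the 18 HSF genes with more than 0.1 TPM in RNA-seq, the 10 described genes in blue and the others in grey, with exact 95% binomial intervals from the split of both counts. The grey band is the 25th to 75th percentile of nuclear genes (-0.42 to 0.57), the solid line their median (0.12) and the dashed line a ratio of -1, with HSFB1 at -1.36 to its left.

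The rest of the family, 11 genes, leaned the same way. Of the 8 with a ratio, 7 lay below the nuclear median, and their own median was -0.56. HSFA7A (AT3G51910), a heat-induced factor, had 3.34 TPM in Ribo-seq against 6.99 TPM in RNA-seq and a ratio of -1.04 (-1.24 to -0.85). It and HSFA7B, which had only 16 footprints and 15 RNA-seq counts and is named here after its value was seen, were the pair under -1 of these 8, beside 10.1% of nuclear genes. The ratio of HSFA7B was -1.46 (-2.57 to -0.34), and -0.34 with a pseudocount of 1. Both intervals hold -1, so neither gene can be placed above or below it at this depth. HSFA3, which acts downstream of the drought factor DREB2A, had a ratio of -0.97, and HSFA1E, the remaining A1 gene, one of -0.81. That of HSFA5, a partner and inhibitor of HSFA4 proteins, was -0.31, and that of HSFA4C, the close relative of HSFA4A, was -0.17. HSFB4, a root stem cell factor, reached 0.25 with 6.86 TPM in Ribo-seq against 5.77 TPM in RNA-seq. The other 5 genes had 1 TPM or less in RNA-seq.

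Transcription factors of other families had a median ratio close to that of the 10 genes. Over the 278 nuclear genes with the words transcription factor in their product name and with a ratio, HSF genes left out, the median was -0.19 and 16.9% lay under -1. Of these genes 69.4% were below the nuclear median, against 70.0% of the 10 HSFs. HSFB1 was at percentile 9.35 of these factors.

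HSFB1 is the only one of the 21 HSF genes with an annotated uORF, at chr4:17440443-17440553 on the plus strand, with 36 codons before its stop. It starts at position -217, counted from the A of the main ATG. A second upstream ATG at -265 opens a frame of 15 codons whose stop codon ends right before the annotated uORF begins. Across the genome, 83 measured nuclear genes have an annotated uORF, HSFB1 included, and the 81 with a ratio had a median of -1.33, with 64.2% under -1 and 5 above the nuclear median. HSFB1 ranked 39 from the lowest among these 81, close to the middle of that group. The tables count reads over main coding sequences only, and footprints on the uORF itself were not analysed here.

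The number of upstream ATGs did not follow the order of ratios among the 10 genes. All 10 have at least 1 in the annotated 5-prime leader, and in 9 of them at least 1 frame closes before the main start. Of the 20600 nuclear genes with a ratio and a leader, 64.5% have at least 1 and 60.5% have a closed frame. Over nuclear genes the median ratio was 0.30 with 0 upstream ATGs, 0.18 with 1, 0.05 with 2 and -0.12 with 3 or more, while the median leader length was 110, 175, 225 and 393 bases. HSFB1, with 2, lay below the 10th percentile of its class (-1.02), and 5.24% of that class lay lower. HSFB2A has 5 upstream ATGs and HSFC1 has 4, and both had ratios of 0.25. HSFB2B, also with 4, was at -0.13, and HSFA4A, with 3 in the longest leader of the set (851 bases), was at -0.40.

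At the other end, HSFA1D and HSFA8 have 1 upstream ATG each, and HSFA1B has 2. HSFA1A has 1 as well, at the first base of an annotated leader of 43 bases, and its frame runs into the main coding sequence. HSFA2 has 5 on its longest transcript and 1 on another, so its class depends on the isoform. The 5 genes with 3 or more upstream ATGs ranged in ratio from -0.78 to 0.25 and the 3 with 1 from -0.74 to 0.23. Each low end is a single gene, HSFA2, with 37 RNA-seq counts, and HSFA1A. The next genes up were HSFA4A at -0.40 and HSFA1D at -0.05, so the likeness of these spans rests on single genes.

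**Figure D3:**
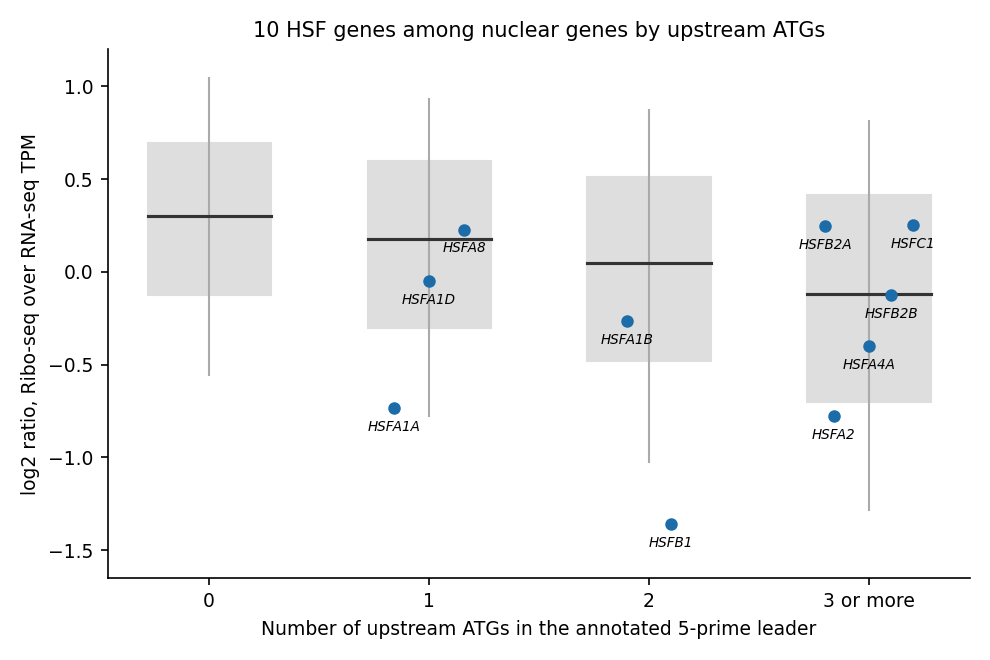
log2 ratio (Ribo-seq over RNA-seq TPM, vertical axis) by the number of ATGs in the annotated 5-prime leader. Grey boxes run from the 25th to the 75th percentile of nuclear genes, grey lines from the 10th to the 90th, black bars mark medians (0.30, 0.18, 0.05 and -0.12), and blue points are the 10 HSF genes. HSFB1 is the 1 point below the 10th percentile of its class.

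HSF partners and repressors, the chaperones, immunophilins and binding proteins that interact with the HSF system, had a higher median ratio than the factors. All 11 lay above the nuclear median, with a median ratio of 0.79, and 4 of them (HSP90.1, HSP90.4, HSC70-2 and ROF1, named after their values were seen) were over 1, beside 8.44% of nuclear genes. The interval of HSC70-2, 0.99 to 1.11, held 1. Of these 4, only HSP90.4 stayed over 1 with TPM over nuclear genes alone (1.94) and with whole coding lengths (2.03). On these scales HSP90.1 was at 0.75 and 0.84, HSC70-2 at 0.61 and 0.70, and ROF1 at 0.66 and 0.78. The shares of nuclear genes over 1 were 2.66% and 8.88%. HSC70-1, the main cytosolic HSP70 that holds HSFA1 inactive, was the most abundant, at 1342.8 TPM in Ribo-seq against 1205.19 TPM in RNA-seq and a ratio of 0.16. HSP90.2 had a ratio of 0.87 and HSP90.3 one of 0.79, but 39.6% and 47.9% of their 28-base words occur in other genes, so the split of reads between these copies is uncertain. The copy HSP90.4, at 2.39, shares 38.2% of its words, and HSC70-3 was at 0.69. HSBP (AT4G15802), a small protein that binds HSF trimers and ends the response, had 207.02 TPM in Ribo-seq against 130.97 TPM in RNA-seq, a ratio of 0.66 (0.55 to 0.77). Its coding sequence is short, with an effective length of 234 bases in Ribo-seq and 82.14 bases in RNA-seq, and without that correction its ratio was 1.97 in CPM and 1.69 with whole coding lengths. HSBP, HSC70-1, HSC70-3, HSP90.2 and HSP90.3 each stood above every HSF gene in TPM in both assays.

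Heat-induced target genes were low in RNA, with a median of 3.83 TPM over the 15 with a ratio. Their median ratio was 0.95, and 13 of these 15 lay above the nuclear median. A ratio over 1 was found in 7, beside 8.44% of nuclear genes. Of these 7, only HSP17.4 (1.44 to 2.35) and HSP17.6A (1.06 to 1.77), named after their values were seen, had intervals wholly above 1. Which genes pass 1 also depends on the scale. HSP17.6B, a small heat shock protein, had 50.49 TPM in Ribo-seq against 28.64 TPM in RNA-seq and a ratio of 0.82 (0.69 to 0.95). HSP17.6II, of the same chaperone family, was at 1.19 (0.96 to 1.43), and the coactivator MBF1C at 0.45 (0.29 to 0.61). These 3 genes are short as well, and in CPM their ratios were 1.27 for HSP17.6B, 1.62 for HSP17.6II and 0.93 for MBF1C. HSP101, the disaggregase required for acquired heat tolerance, was at -0.05 (-0.15 to 0.04) and with DREB2A, named after its value was seen, made up the 2 below the nuclear median.

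Of the 7 genes of endoplasmic reticulum folding and defence linked to HSFB1, 5 lay above the nuclear median, and the median was 0.72. SHD, the HSP90 of the endoplasmic reticulum, had a ratio of 0.67, and the calreticulin CRT3 one of 1.03. BIP1 and BIP2, HSP70 chaperones of that compartment, were at 0.94 and 0.77, with 51.0% and 50.5% of their 28-base words in other genes. The defence genes NPR1, at -0.23, and PR1, at -0.33, were the 2 below the median and are named after their values were seen. HSFB1 was lower in ratio than each of these 7 genes, and so were HSFA2, HSFA1A and HSFA4A, so this is not particular to HSFB1.

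**Figure D4:**
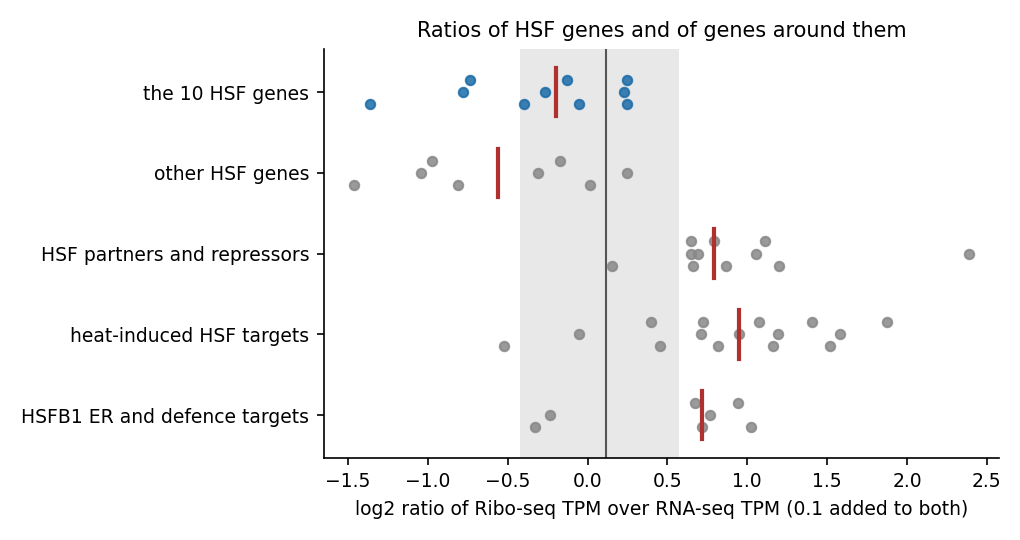
log2 ratio (Ribo-seq over RNA-seq, horizontal axis), 1 point per gene, for the 10 HSF genes (blue, top), the other HSF genes, HSF partners and repressors, heat-induced HSF targets, and HSFB1 targets. Red bars are list medians (-0.20, -0.56, 0.79, 0.95 and 0.72), the grey band is the 25th to 75th percentile of nuclear genes and the line their median.

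The HSFs' own promoters were searched for GAANNTTC, a form of the heat shock element that reads the same on both strands, in the 250 bases before each annotated start. It occurred in 2 of the 10, 20.0%, against 9.55% of the promoters of all 27443 nuclear genes. The element was also found in 2 of the 11 other HSF genes and in 6 of 16 heat-induced targets. A count of 2 in 10 is too small to set the 10 genes apart from the nuclear share, and the difference was not tested. A match is a description of letters and not of binding. Only this form, with GAA ahead of TTC, was searched, so promoters without a match may hold heat shock elements of another form. The sites of the 10 genes are shown because HSFs read such elements, and capitals mark the element. HSFA2 has 2 of them, as do HSFA7A and HSFA7B of the other HSF genes.
HSFA2, chr2:11135525-11135554, plus strand, first base of the element at -88: agattagtaacGAAGTTTCtggaacattgt
HSFA2, chr2:11135580-11135609, plus strand, first base of the element at -33: taaatgtcaaaGAAGCTTCaatacagtgaa
HSFA4A, chr4:10350057-10350086, minus strand, first base of the element at -173: agatcaacaacGAATTTTCttacggccata
In these unheated seedlings HSFA2 had the lowest level of the 10 genes in both assays, and HSFA4A, at 4.45 TPM in Ribo-seq and 5.90 TPM in RNA-seq, lay in the middle of the set.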

How the data were processed

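Per the labels, the libraries were handled with Bowtie2 2.3.4.1, STAR and RSEM 1.3.1. No source used here gives the roles of the first pair, the strandedness, the annotation or how the 6 libraries were pooled. Each assay has 1 RSEM table, in which the authors deposited expected counts (not normalized), TPM and FPKM, with TPM and FPKM computed over effective coding lengths. FPKM was not used. Read depth was 299584069 footprints and 51390094 RNA-seq counts.

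The ratio is log2((Ribo-seq TPM + 0.1)/(RNA-seq TPM + 0.1)) for genes over 0.1 TPM in RNA-seq. Past -1 or 1 is a description, not a test. Intervals at 95% are exact Poisson (counts) and exact Clopper-Pearson on the split of both counts (ratio). The ratio and its interval were tested on simulated Poisson counts, the model that the intervals assume. That test does not cover spread between libraries or reads shared between genes. A gene's percentile is the share of nuclear genes below it.

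Gene structure, sequence and uORFs came from RefSeq TAIR10.1, on the longest transcript for leaders and the longest coding sequence for words of 28 bases. Files name genes by locus codes, and coordinates are those of TAIR10.1. A uORF counted if it lay within its gene on the same strand (110 of 111).

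Members and lists were chosen with earlier results of these data known. Named are the 10 members, other HSFs over 1 TPM in RNA-seq, HSBP, and up to 4 genes of each further list by RNA-seq TPM. In 1 case a listed locus carried another symbol and was left out. The classes by product name and annotated uORF were added after the data were seen. Alternatives were a pseudocount of 1, CPM, TPM over nuclear genes alone, subtraction of the nuclear median, and whole coding lengths. Software was Python 3.11.15, numpy 2.4.6, pandas 2.3.3, scipy 1.17.1, Biopython 1.88 and matplotlib 3.10.9.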

Additional observations from a re-analysis of the deposited data

How the results depend on the processing

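Rescaling TPM over nuclear genes alone shifts the nuclear median by -0.43, because organelle genes hold 30.23% of RNA-seq TPM and 4.841% of Ribo-seq TPM. It moved the median of the 10 genes to -0.63 and the number under -1 to 3 (HSFB1 at -1.81, HSFA2 at -1.19 and HSFA1A at -1.18), with 19.8% of nuclear genes under -1 and 2.66% over 1. Whole coding lengths gave a median of -0.47 and 2 genes under -1 (HSFB1 at -1.53 and HSFA1A at -1.04), with 14.2% of nuclear genes under -1. Relative to the nuclear median of each scale, HSFB1 stayed between -1.49 and -1.30, HSFA1A, HSFA1B, HSFA1D, HSFA2, HSFA4A and HSFB2B stayed below it on all 6 scales, and HSFA8, HSFB2A and HSFC1 stayed above. None of the 10 genes passed 1 on any of these scales. With 1 TPM as the minimum in RNA-seq, 8.77% of nuclear genes lay under -1 and 8.06% over 1. A pseudocount of 1 left 4.85% of nuclear genes under -1, and CPM put 14.6% over 1. The shares of nuclear genes on other scales were added after seeing the data. The order of medians by upstream ATGs held with the longest leader and with closed frames only.

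No paired analysis was possible because each assay has 1 pooled column, and leaving out single libraries was not possible for the same reason. The planned comparison of footprints on the HSFB1 uORF with its main frame was not run, since no row for that uORF was at hand. Depth limits HSFA2 most, with 37 RNA-seq counts.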
